A study of Mus musculus with 8 samples.

Results

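The 10 genes described here are Notch1, Tcf7, Gata3, Bcl11b, Thy1, Zap70, Lat, Tox, Id2 and Zbtb16. These genes serve T, natural killer and innate lymphoid fates, the alternatives to the fate that a B-cell-biased progenitor favours. They were listed by name, with earlier results of these data known, and all 10 were found among the 37991 gene IDs of the count table. In progenitors without macroH2A1, Tox and Zap70 were higher and Lat was lower than in wild-type progenitors in every pool, without overlap between the genotypes. Notch1 was at the same mean level in both genotypes. Tcf7, Gata3, Bcl11b and Zbtb16 ranged more widely among the H2afy_WT pools than their means differed between the genotypes. None of the 10 passed the edgeR test across all genes, and DESeq2 called Tox and Zap70.

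A lymphoid progenitor that meets Notch ligands in the thymus switches on Tcf7 and Gata3, and then Bcl11b, which closes the other fates. In the bone marrow the same progenitors are directed to the B lineage by E proteins, a class of transcription factors that bind a DNA motif called the E-box and that Id proteins hold in check. Innate lymphoid and natural killer cells arise from related progenitors and depend on Id2, Tox and, in a subset, Zbtb16. MacroH2A1, the product of H2afy, is a histone H2A variant with a large additional domain, found in chromatin where many genes are silent.

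RNA was sequenced from B-cell-biased lymphoid progenitors of the bone marrow, which the labels call BLPs, of H2afy-/- mice (H2afy_KO, 4 pools) and of H2afy+/+ mice (H2afy_WT, 4 pools). All mice were 5 to 12 weeks old and no treatment is given for either genotype. Marrow was enriched for c-Kit-bearing cells, BLPs were sorted by flow cytometry, and each pool held RNA of 5000 to 15000 BLPs from 2 to 3 mice. The labels do not give the strain, the deleted part of the allele, or whether pools share mice, so the p-values rest on how these pools vary, which may be technical.

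The pools held 21330088 to 29029765 counts. H2afy, counted over the whole gene, had 1953, 1744, 1423 and 1517 counts per 1000000 counts (CPM) in H2afy_KO pools 1 to 4, against 2455, 2567, 2063 and 1981 CPM in H2afy_WT pools 1 to 4. Every H2afy_KO pool was lower than every H2afy_WT pool, but since the deleted part is not given, this count over all its exons is no check of the labels. Immunoglobulin genes, products of mature B and plasma cells, took 0.407%, 10.6%, 40.8% and 35% of the counts in H2afy_KO pools 1 to 4, against 3.73%, 1.04%, 20.5% and 13.6% in H2afy_WT pools 1 to 4. Pools 3 and 4 of each genotype held the larger shares, and those of H2afy_KO stand apart. Of 10 progenitor markers, the 2 with the highest mean CPM are given. Flt3, a cytokine receptor of early progenitors, averaged 1022 ± 147 CPM in H2afy_KO and 980.4 ± 90.9 CPM in H2afy_WT, with SDs over 4 pools each. Dntt, the polymerase that adds bases at antigen receptor joints, averaged 4017 ± 751 CPM in H2afy_KO and 5663 ± 649 CPM in H2afy_WT, with overlap (edgeR p 0.0106, adjusted p 0.489). At an unadjusted edgeR p under 0.05, 4 of the 10 were lower in H2afy_KO and 0 higher, against 3.69% and 3.88% of all genes tested. For 3, all lower, the genotypes did not overlap, against 2.35%. edgeR called 0 and DESeq2 1 as lower, Rag1, against 0.54% of its genes. With a block for the replicate number DESeq2 called 4 as lower, against 1.61%.

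The levels of the 10 genes differed widely when set per kilobase of exon (RPKM), the scale on which genes can be compared with each other. Id2 was the highest, at 57.5 ± 7.99 RPKM in H2afy_KO and 49.3 ± 13.4 RPKM in H2afy_WT, with SDs over 4 pools each. In H2afy_KO the order after Id2 was Lat, Tox, Notch1, Tcf7, Zap70, Gata3, Thy1, Bcl11b and Zbtb16. In H2afy_WT it was Lat, Notch1, Tox, Tcf7, Gata3, Thy1, Zap70, Bcl11b and Zbtb16. Among neighbours in that order, the pools did not overlap for Id2 and Lat, Notch1 and Tcf7, Gata3 and Thy1, and Thy1 and Bcl11b in H2afy_KO, and for Id2 and Lat and for Lat and Notch1 in H2afy_WT. The other neighbours overlapped. Tox stood above Notch1 in H2afy_KO, at 16.1 ± 4.34 against 12.1 ± 2.62 RPKM, and Zap70 stood above Gata3 there, at 2.33 ± 0.528 against 2.1 ± 0.962 RPKM; in H2afy_WT both were in the reverse order. Zbtb16 was at 0.148 ± 0.038 RPKM in H2afy_KO and 0.256 ± 0.264 RPKM in H2afy_WT, so its values rest on 11 to 26 reads a pool in H2afy_KO and 2 to 77 reads a pool in H2afy_WT.

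Zap70 and Lat act in sequence below the T cell receptor. Zap70 is the kinase that binds the phosphorylated receptor chains, and Lat is the membrane scaffold that it phosphorylates. Zap70 had 5.33, 4, 5.34 and 7 CPM in H2afy_KO pools 1 to 4, against 3.38, 1.21, 1.84 and 1.95 CPM in H2afy_WT pools 1 to 4. Each H2afy_KO pool was above the highest H2afy_WT pool. The log2 fold change, H2afy_KO over H2afy_WT, was 1.37 with a standard error (SE) of 0.35. The edgeR quasi-likelihood p was 0.0024, and 0.426 after Benjamini-Hochberg adjustment over all 13722 genes tested. DESeq2 called it, with an adjusted p of 0.0182, and over all alternatives the adjusted p of Zap70 ran from 0.0034 to 1. In pooled RNA, a change in the number of cells of a type and a change in RNA per cell cannot be told apart. In reads, the gene had 88 to 168 in H2afy_KO pools and 32 to 100 in H2afy_WT pools.

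Lat had 26.4, 20, 19.7 and 27 CPM in H2afy_KO pools 1 to 4, against 30.1, 31.9, 28.3 and 37.5 CPM in H2afy_WT pools 1 to 4. Here each H2afy_KO pool was below the lowest H2afy_WT pool, the direction opposite to that of Zap70. Lat had a log2 fold change of -0.46 (SE 0.16, edgeR p 0.0178, adjusted p 0.527). DESeq2 gave Lat an adjusted p of 0.303, and over all alternatives it ran from 0.0724 to 1.

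In mm9 coordinates, Zap70 (ENSMUSG00000026117) lies at chr1:36818695-36839663 on the plus strand and Lat (ENSMUSG00000030742) at chr7:133507346-133513057 on the minus strand. The 250 bases before their starts, as RefSeq gives them on GRCm38.p6, are shown because the genotypes did not overlap for these 2 genes, in opposite directions. Of the 10 genes, 7 matched the RefSeq table, and Tox, Zbtb16 and Thy1 did not. Capitals mark matches to the general letters of the E-box, CANNTG on either strand, whichever protein binds them. The Zap70 sequence (chr1:36761548-36761797, plus strand) precedes the most upstream of 3 starts, and the Lat sequence (chr7:126369569-126369818, minus strand) precedes its 1 start.
Zap70: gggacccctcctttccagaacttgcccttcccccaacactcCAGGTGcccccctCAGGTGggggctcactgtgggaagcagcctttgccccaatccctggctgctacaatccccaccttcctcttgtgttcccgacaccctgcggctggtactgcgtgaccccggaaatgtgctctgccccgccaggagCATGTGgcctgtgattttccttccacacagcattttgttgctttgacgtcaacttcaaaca
Lat: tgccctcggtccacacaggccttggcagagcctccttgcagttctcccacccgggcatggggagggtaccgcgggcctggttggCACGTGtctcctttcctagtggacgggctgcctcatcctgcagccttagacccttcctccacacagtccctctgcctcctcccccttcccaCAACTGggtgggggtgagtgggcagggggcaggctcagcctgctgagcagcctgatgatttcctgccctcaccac
Zap70 held 3 matches, of which 2 read CAGGTG, a form that the E protein Tcf3 binds, searched on both strands, and Lat held 2 matches with no CAGGTG. Of 27018 RefSeq promoters of this length, 66.1% held at least 1 CANNTG and 17.1% held at least 1 CAGGTG. At least 2 matches were found in 31.7% for CANNTG and in 2.04% for CAGGTG. A match is a description of the letters only.

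B-lineage cells use relatives of this pair. Syk, the kinase that takes the part of Zap70 below the B cell receptor, averaged 178 ± 15.1 CPM in H2afy_KO and 217 ± 42.8 CPM in H2afy_WT, with SDs over 4 pools each, and the genotypes overlapped. Per length, Syk was at 19 ± 1.61 RPKM in H2afy_KO and 23.2 ± 4.57 RPKM in H2afy_WT, above Zap70 in every pool. Lat2, the scaffold related to Lat in B and myeloid cells, had 309.5, 284, 294 and 314 CPM in H2afy_KO pools 1 to 4, against 217, 203, 235 and 245 CPM in H2afy_WT pools 1 to 4. Every H2afy_KO pool was higher, with a log2 fold change of 0.42 (SE 0.12) and an edgeR adjusted p of 0.46. So Zap70 and Lat2 were higher in H2afy_KO while Lat, and Syk by its mean, were lower.

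Of 36 other genes of antigen receptor signalling, all tested, edgeR and limma-voom called 0. DESeq2 called 2 as lower, against 0.54% of its genes. At an unadjusted edgeR p under 0.05, 4 were higher and 9 lower in H2afy_KO, against 3.88% higher and 3.69% lower of all genes tested. The genotypes did not overlap for 2 that were higher and 8 that were lower, against 2.18% and 2.35% of all genes tested. Markers of the B lineage, 10 genes with Blnk among them, moved with this list: 8 were lower at an unadjusted edgeR p under 0.05, 7 were lower without overlap, and their median log2 fold change was -1.14. Their part in the counts of this list was not tested. The list had 14 positive and 22 negative log2 fold changes with a median of -0.15, and the median over all genes was 0.00074. The lowest p-values were those of Blnk, Lat2 and Prkcb. Blnk, the adaptor below the pre-B cell receptor, averaged 301 ± 64.1 CPM in H2afy_KO and 516 ± 116 CPM in H2afy_WT (log2 fold change -0.78, SE 0.20, edgeR adjusted p 0.426). Prkcb, the protein kinase C isoform of B cell receptor signalling, averaged 12.9 ± 6.31 CPM in H2afy_KO and 28 ± 6.9 CPM in H2afy_WT (log2 fold change -1.11, SE 0.31, edgeR adjusted p 0.464). Blnk and Prkcb were the 2 that DESeq2 called. With a block for the replicate number it called 9, of which 3 were higher and 6 lower, against 1.7% and 1.61% of its genes.

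**Figure D1:**
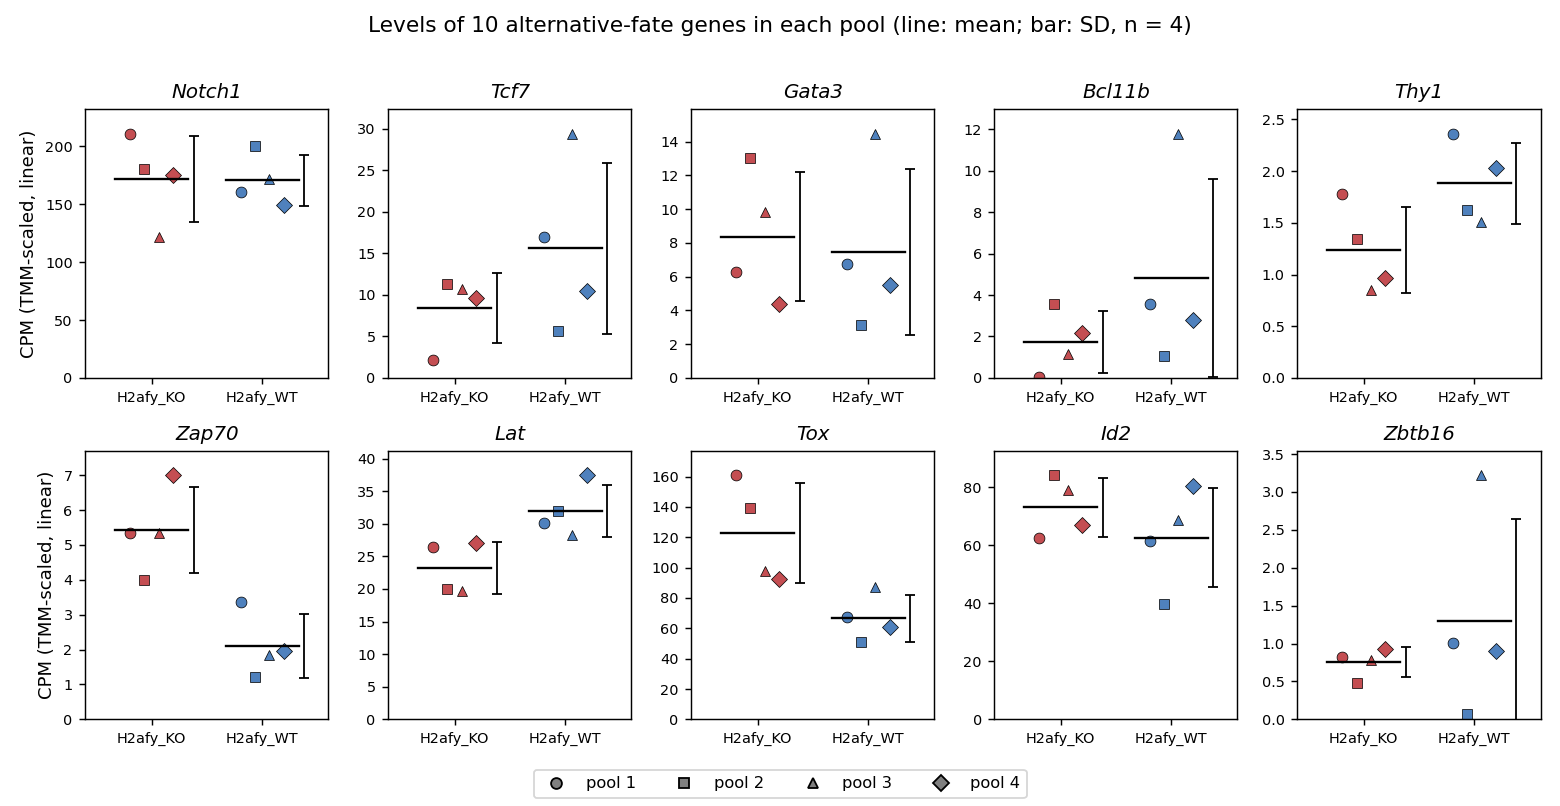
Level of each of the 10 genes in each pool, in TMM-scaled CPM on a linear axis that differs between panels, with H2afy_KO left of H2afy_WT; points are pools, the line is the mean and the bar the SD (n = 4), cut off at 0. Zap70 and Tox show all 4 H2afy_KO pools above the H2afy_WT pools and Lat all 4 below them, while H2afy_WT pool 3 lies highest for Tcf7, Gata3, Bcl11b and Zbtb16.

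Tox (ENSMUSG00000041272, mm9 chr4:6613500-6918704, minus strand), an HMG-box nuclear protein that innate lymphoid progenitors and CD4 T cells need, was the other gene higher in each H2afy_KO pool. It had 161, 139, 98 and 92.2 CPM in H2afy_KO pools 1 to 4, against 67.4, 50.7, 87.5 and 60.8 CPM in H2afy_WT pools 1 to 4. H2afy_KO pools 1 and 2 were highest, and the lowest H2afy_KO pool was close above the highest H2afy_WT pool. Its log2 fold change was 0.88 (SE 0.22, edgeR p 0.0020, adjusted p 0.42). DESeq2 called Tox, with an adjusted p of 0.0307, and over all alternatives it ran from 0.0033 to 0.83. With H2afy_KO pools 3 and 4, the pools rich in immunoglobulin, left out, the log2 fold change was 1.18 for Tox, 1.16 for Zap70 and -0.45 for Lat. With the immunoglobulin share, entered as its log2, as a covariate these were 0.88, 1.35 and -0.45. Tox4, a widely expressed relative, averaged 154 ± 8.71 CPM in H2afy_KO and 154 ± 15.7 CPM in H2afy_WT. Tox3 was near 1 CPM in both genotypes, with a log2 fold change of -0.39 (SE 0.52), and Tox2 was too low to test.

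Id2 (ENSMUSG00000020644, mm9 chr12:25778666-25780957, minus strand) binds E proteins and keeps them off DNA, which innate lymphoid cells require. It had 62.4, 84.2, 78.9 and 66.8 CPM in H2afy_KO pools 1 to 4, against 61.4, 39.8, 68.7 and 80.4 CPM in H2afy_WT pools 1 to 4. The genotypes overlapped, with a log2 fold change of 0.22 (SE 0.20, edgeR adjusted p 0.826). Id3, the relative that lymphocytes also use, had 3.87, 11.1, 4.37 and 14.2 CPM in H2afy_KO pools 1 to 4, against 44.6, 27.3, 23.7 and 17.3 CPM in H2afy_WT pools 1 to 4. Every H2afy_KO pool was lower for Id3, with a log2 fold change of -1.75 (SE 0.48, edgeR adjusted p 0.467), and DESeq2 called it without a block for the replicate number but not with one. Id1 was under 1 CPM in every pool and Id4 was not tested.

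The E and Id list, E proteins, Id proteins and their lymphoid and blood relatives, had 10 of 11 genes tested. Besides Id3, 2 genes had the smallest p-values. Lyl1, a bHLH partner of E proteins in early progenitors, averaged 23.8 ± 4.64 CPM in H2afy_KO and 16.3 ± 1.78 CPM in H2afy_WT (log2 fold change 0.55, SE 0.18, edgeR adjusted p 0.489). Tal1, a related factor of blood stem and erythroid cells, averaged 2.36 ± 0.274 CPM in H2afy_KO and 3.35 ± 0.177 CPM in H2afy_WT (log2 fold change -0.51, SE 0.26, edgeR adjusted p 0.7). At an unadjusted edgeR p under 0.05 the list had 1 higher and 1 lower gene, against 3.88% and 3.69% of all genes tested. edgeR called 0, limma-voom 0, and DESeq2 1 as lower, which was Id3, against 0.54% of its genes. With a block for the replicate number DESeq2 did not call Id3 and called Lyl1 as higher, against 1.7% of its genes. The list's median log2 fold change was -0.10.

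Zbtb16 (ENSMUSG00000066687, mm9 chr9:48462416-48644050, minus strand), which encodes PLZF, the factor of innate-like T cells and innate lymphoid precursors, had 0.825, 0.478, 0.789 and 0.928 CPM in H2afy_KO pools 1 to 4, against 1.01, 0.0755, 3.22 and 0.902 CPM in H2afy_WT pools 1 to 4. Both the highest and the lowest pool were H2afy_WT. Its log2 fold change of -0.78 (SE 0.77, edgeR adjusted p 0.852) became 0.18 without H2afy_WT pool 3, so no direction can be given.

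Of 34 innate lymphoid and natural killer genes, 27 were tested, and edgeR and limma-voom called 0. DESeq2 called 3 as higher, Itgb7, Itga4 and Klrd1, against 0.335% of its genes. With a block for the replicate number it called 5 as higher and 1 as lower, against 1.7% and 1.61%. At an unadjusted edgeR p under 0.05, 4 were higher and 1 was lower, against 3.88% and 3.69% of all genes tested. The genotypes did not overlap for 4, all higher, against 2.18%, and the median log2 fold change was 0.06. Itgb7, an integrin chain for homing to the gut, averaged 17.1 ± 6.05 CPM in H2afy_KO and 5.41 ± 2.4 CPM in H2afy_WT (log2 fold change 1.66, SE 0.34, edgeR adjusted p 0.34). Its partner Itga4 averaged 354 ± 34.8 CPM in H2afy_KO and 241 ± 27.1 CPM in H2afy_WT (log2 fold change 0.55, SE 0.13, edgeR adjusted p 0.419). Klrd1, the lectin chain that pairs with natural killer receptors, averaged 27.4 ± 6.56 CPM in H2afy_KO and 13.9 ± 4.6 CPM in H2afy_WT (log2 fold change 0.98, SE 0.26, edgeR adjusted p 0.426). Eomes, Tbx21 and Gzmb stayed under 1 CPM, and Il13 and Areg had no reads in any pool. These 5 were picked for their low levels, and 17 of the 34 passed a filter of 5 CPM in 4 samples. Nkg7, a granule protein of cytotoxic cells, was well expressed, at 246 ± 85.3 CPM in H2afy_KO and 322 ± 31.1 CPM in H2afy_WT.

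Notch1 (ENSMUSG00000026923, mm9 chr2:26313423-26372183, minus strand), the receptor that starts the T fate, had 211, 180.3, 122 and 176 CPM in H2afy_KO pools 1 to 4, against 161, 200.2, 172 and 149 CPM in H2afy_WT pools 1 to 4. The means were 172 ± 37.2 CPM in H2afy_KO and 171 ± 21.8 CPM in H2afy_WT, and H2afy_KO pools were both highest and lowest. Its log2 fold change was 0.01 (SE 0.17, edgeR adjusted p 0.994). Notch1 shares 1068 exon bases with 0610009E02Rik on the other strand, counted at 0.912 to 2.78 CPM, and reads there cannot be told apart without strand. Notch2, the receptor that marginal zone B cells need, averaged 259 ± 112 CPM in H2afy_KO and 229 ± 85 CPM in H2afy_WT, with a log2 fold change of 0.18 (SE 0.35). Notch3 and Notch4 were too low to test.

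Of 34 other genes of the Notch pathway, from ligands to targets, 26 were tested. edgeR, DESeq2 and limma-voom each called 0. DESeq2 with a block for the replicate number called 2 as lower, Maml2 and Mfng, against 1.61% of its genes. At an unadjusted edgeR p under 0.05, 0 were higher and 3 were lower, against 3.88% and 3.69% of all genes tested, and the median log2 fold change was -0.16. The 3 were Mfng, Maml2 and Hes1. Mfng, a Fringe sugar transferase that alters which ligands Notch receives, averaged 96.6 ± 16.7 CPM in H2afy_KO and 140.2 ± 18 CPM in H2afy_WT, without overlap (log2 fold change -0.54, SE 0.15, edgeR adjusted p 0.464). Maml2, a Mastermind coactivator of the Notch complex, averaged 89 ± 18.4 CPM in H2afy_KO and 124 ± 28.5 CPM in H2afy_WT (log2 fold change -0.48, SE 0.19, edgeR adjusted p 0.579). Hes1, a repressor that Notch induces, had 4.32, 6.91, 3.4 and 8.73 CPM in H2afy_KO pools 1 to 4, against 12.3, 15.9, 8.62 and 7.82 CPM in H2afy_WT pools 1 to 4. Only H2afy_KO pool 4 overlapped with H2afy_WT for Hes1, whose log2 fold change was -0.93 (SE 0.34, edgeR adjusted p 0.529). Ptcra, a Notch target of early T cells, was at most 0.226 CPM in any pool.

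Tcf7 (ENSMUSG00000000782, mm9 chr11:52065873-52096681, minus strand), which encodes the HMG-box factor TCF1 that Notch induces first, had 2.1, 11.3, 10.7 and 9.58 CPM in H2afy_KO pools 1 to 4, against 17, 5.62, 29.4 and 10.5 CPM in H2afy_WT pools 1 to 4. The genotypes overlapped, with H2afy_KO pool 1 lowest and H2afy_WT pool 3 highest. A log2 fold change of -0.90 resulted (SE 0.62, edgeR adjusted p 0.785), and of -0.39 without H2afy_WT pool 3. With the immunoglobulin share as a covariate it was -1.20 (SE 0.34, edgeR p 0.0057, adjusted p 0.36).

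The other 3 genes of the Tcf7 family had log2 fold changes of the same sign. Lef1, its closest partner in lymphocytes, had 6.29, 26.7, 4.55 and 12.1 CPM in H2afy_KO pools 1 to 4, against 59.6, 50.2, 49.6 and 32.2 CPM in H2afy_WT pools 1 to 4. Each H2afy_KO pool was lower, with a log2 fold change of -1.95 (SE 0.55, edgeR adjusted p 0.473). Tcf7l1 averaged 0.766 ± 0.467 CPM in H2afy_KO and 3.17 ± 1.49 CPM in H2afy_WT (log2 fold change -2.03, SE 0.54, edgeR adjusted p 0.426), and DESeq2 called it. Tcf7l2, the most abundant of the family by count, averaged 175 ± 63.4 CPM in H2afy_KO and 283 ± 95.4 CPM in H2afy_WT, overlapping between the genotypes, with a log2 fold change of -0.69 (SE 0.29, edgeR adjusted p 0.629). All 4 bind the same DNA motif and act with beta-catenin.

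Gata3 (ENSMUSG00000015619, mm9 chr2:9778705-9811661, minus strand), the zinc-finger factor needed for early T and type 2 innate lymphoid cells, had 6.25, 13, 9.83 and 4.39 CPM in H2afy_KO pools 1 to 4, against 6.75, 3.13, 14.5 and 5.52 CPM in H2afy_WT pools 1 to 4. The ranges nearly coincided, with a log2 fold change of 0.16 (SE 0.48, edgeR adjusted p 0.959), and 0.70 without H2afy_WT pool 3. Its relatives Gata1 and Gata2, factors of erythroid, mast and stem cells, had lower means in H2afy_KO with overlap. Gata1 averaged 3.95 ± 1.78 CPM in H2afy_KO and 11.3 ± 9.8 CPM in H2afy_WT, and Gata2 averaged 1.11 ± 0.695 CPM in H2afy_KO and 2.86 ± 1.92 CPM in H2afy_WT. The erythroid marker list varied widely across pools, from 8.95 to 89.1 CPM summed in H2afy_KO and from 26 to 279.7 CPM summed in H2afy_WT, and its part in the GATA values was not tested.

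Bcl11b (ENSMUSG00000048251, mm9 chr12:109148613-109241812, minus strand), the zinc-finger factor that commits cells to the T lineage, had 0.0635, 3.57, 1.15 and 2.15 CPM in H2afy_KO pools 1 to 4, against 3.58, 1.06, 11.8 and 2.82 CPM in H2afy_WT pools 1 to 4. These are 2, 82, 19 and 51 reads in H2afy_KO and 106, 28, 282 and 75 reads in H2afy_WT. H2afy_KO pool 1 was close to 0 and H2afy_WT pool 3 stood above the rest. The log2 fold change of -1.47 had an SE of 1.03 (edgeR adjusted p 0.785), and it was -0.52 without H2afy_WT pool 3 and -1.07 without H2afy_KO pool 1. With the immunoglobulin share as a covariate it was -1.88 (SE 0.67, edgeR p 0.0202, adjusted p 0.431). Bcl11a, the relative that early B-lineage cells require, averaged 149 ± 14.8 CPM in H2afy_KO and 179.7 ± 30.7 CPM in H2afy_WT, with overlap and a log2 fold change of -0.27 (SE 0.14, edgeR adjusted p 0.703).

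Thy1 (ENSMUSG00000032011, mm9 chr9:43851467-43856662, plus strand), the surface protein by which mouse T cells are recognised, had 1.78, 1.35, 0.849 and 0.97 CPM in H2afy_KO pools 1 to 4, against 2.36, 1.62, 1.51 and 2.03 CPM in H2afy_WT pools 1 to 4. Only H2afy_KO pool 1 overlapped with H2afy_WT, and the other H2afy_KO pools were below every H2afy_WT pool. Thy1 had a log2 fold change of -0.60 (SE 0.38, edgeR adjusted p 0.753).

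**Figure D2:**
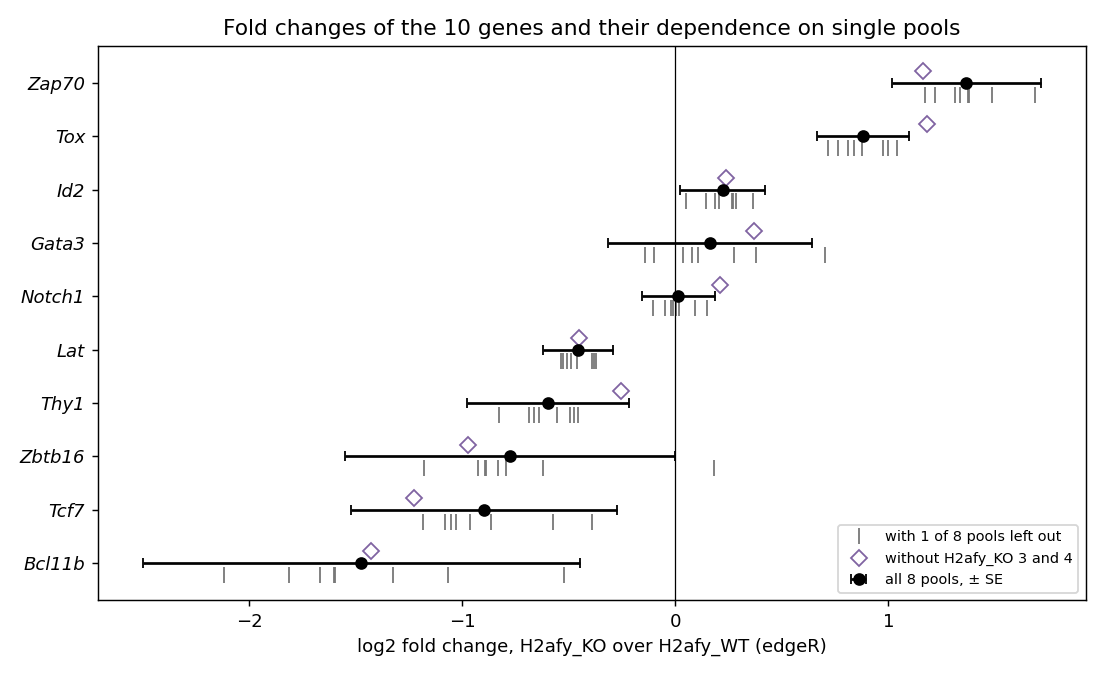
Log2 fold change of each gene, H2afy_KO over H2afy_WT, from edgeR on all 8 pools (black points, bars ± SE), with 1 pool left out at a time (grey ticks) and without H2afy_KO pools 3 and 4 (diamonds). Zap70 and Tox lay above 0 and Lat below 0 in every one of these fits, while Zbtb16 reached 0.18 and Bcl11b -0.52 without H2afy_WT pool 3.

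Counted over the list, 3 of the 10 genes had an unadjusted edgeR p under 0.05, which held for 7.58% of all genes tested. With the immunoglobulin share as a covariate the count was 5, Tcf7 and Bcl11b being added, where 8.96% of all genes tested had such a p. Of the 3, Zap70 and Tox were higher in H2afy_KO and Lat was lower. These 3 were also those whose genotypes did not overlap, as held for 4.53% of all genes tested. edgeR and limma-voom called 0 of the 10, and edgeR called 0% of the 13722 genes. limma-voom called 0.0292% of all genes. DESeq2 called 2, both higher in H2afy_KO, where it called 0.335% of its genes as higher and 0.54% as lower. With a block for the replicate number DESeq2 called the same 2, and 1.7% of its genes as higher and 1.61% as lower. The signs were even, 5 positive and 5 negative, with a median log2 fold change of -0.22, and 50.1% of all genes tested were positive. The 10 genes thus had no common sign.

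Single pools were extreme for several of the genes. H2afy_WT pool 3 held the highest level of 4 genes, Tcf7, Gata3, Zbtb16 and Bcl11b, and H2afy_WT pool 2 the lowest level of 5. H2afy_KO pool 1 held the lowest Tcf7 and Bcl11b and the highest Tox and Notch1. Across the 8 pools the highest level was 186 times the lowest for Bcl11b, 42.7 times for Zbtb16 and 14 times for Tcf7, against 1.74 times for Notch1 and 1.9 times for Lat. The coefficient of variation of Bcl11b was 86% in H2afy_KO and 99.2% in H2afy_WT. For Lat it was 17.1% in H2afy_KO and 12.4% in H2afy_WT.

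**Figure D3:**
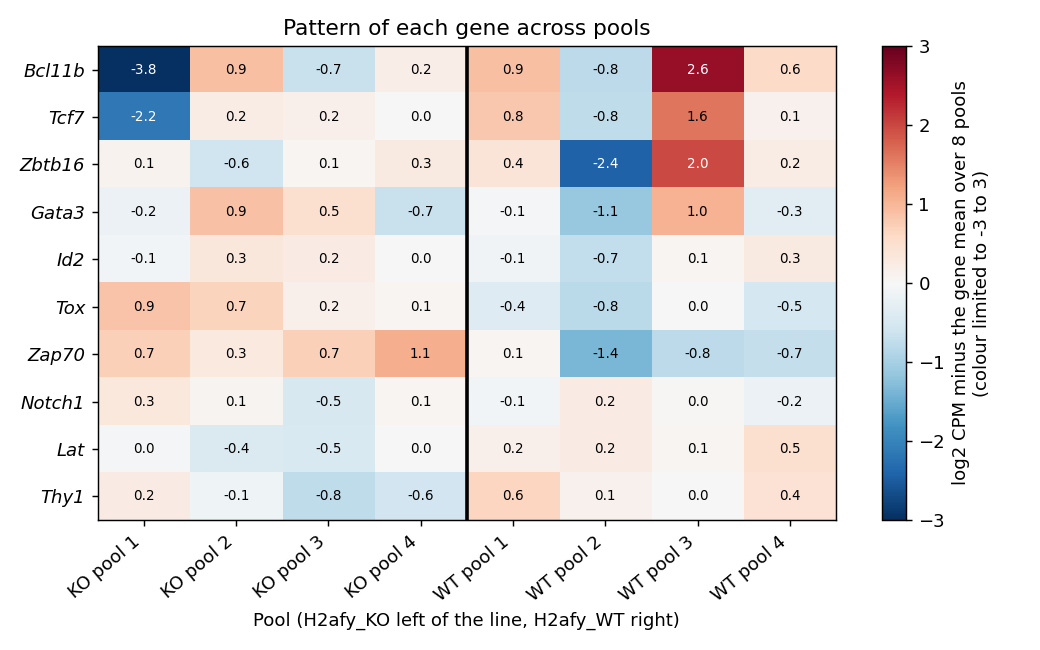
Log2 CPM of each gene in each pool minus that gene's mean over the 8 pools, with H2afy_KO pools left of the line and H2afy_WT pools right of it; colour and printed numbers show the difference. Tcf7 and Bcl11b are lowest in H2afy_KO pool 1 and highest in H2afy_WT pool 3, whereas Zap70 and Tox separate at the line between genotypes.

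The genes whose pattern over the 8 pools lay nearest to each of the 10 were found by the root mean square (RMS) difference of centred log2 CPM, a description over 8 points that share library and depth. For Tcf7 they were Cpa3, a mast cell protease also found in early T progenitors, at 0.201 log2 units, and Trbc1, a T cell receptor beta constant gene, at 0.35. Trbc1 had 0.794, 3.22, 3.46 and 3.21 CPM in H2afy_KO pools 1 to 4, against 6.25, 3.74, 13.8 and 3.76 CPM in H2afy_WT pools 1 to 4. It shared with Tcf7 the low H2afy_KO pool 1 and the high H2afy_WT pool 3. Unlike Tcf7, Trbc1 was lower in every H2afy_KO pool than in any H2afy_WT pool (log2 fold change -1.37, SE 0.54, edgeR adjusted p 0.605). For Bcl11b the nearest were Gm16603, at 0.601, and Il2ra, the interleukin receptor chain of early T cells, at 0.778, a looser likeness than for any other of the 10. For Zap70 they were Gm16894 at 0.236 and Oaz3 at 0.313, and for Tox they were Chmp7 at 0.135 and Mboat1 at 0.244. Lat lay nearest to 2610307P16Rik at 0.0778 and Tgif1 at 0.0916, and Notch1 to Atmin at 0.0861 and Ccdc90b at 0.088. Id2 lay nearest to Nanp and S100a1, Gata3 to Gm11598 and Gm9840, Zbtb16 to Zfp93 and Tlr1, and Thy1 to Zfp558 and Paqr8, at 0.128 to 0.423. Within the 10, Lat and Thy1 were the closest pair, at 0.326, while Zap70 and Lat were 1.02 apart and Zap70 and Bcl11b, the most distant, 2.16.

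In the T lineage list, 25 of 29 genes were tested, with 10 positive and 15 negative log2 fold changes and a median of -0.06. edgeR called 0, while DESeq2 and limma-voom each called 1, Icos, as lower. Over all genes DESeq2 called 0.54% as lower and limma-voom 0.0292% in either direction. DESeq2 with a block for the replicate number called 5, Cd28 and Cd7 as higher and Icos, Ets1 and Lef1 as lower. That fit called 1.7% of its genes as higher and 1.61% as lower. At an unadjusted edgeR p under 0.05, 1 was higher and 4 were lower, against 3.88% and 3.69% of all genes tested. Icos, a costimulatory receptor of activated T cells, had 12.1, 13.4, 10.1 and 10.8 CPM in H2afy_KO pools 1 to 4, against 33, 24.5, 24.6 and 30.3 CPM in H2afy_WT pools 1 to 4. The genotypes were far apart relative to their spread, with a log2 fold change of -1.27 (SE 0.17), and an edgeR adjusted p of 0.0531. No gene had a smaller adjusted p, though 2 genes with smaller unadjusted p-values shared it. edgeR with a block for the replicate number called it as lower, as it did 0.0802% of all genes tested. Ets1, a factor of T, natural killer and B cells, averaged 268 ± 129 CPM in H2afy_KO and 504 ± 135 CPM in H2afy_WT, with overlap (log2 fold change -0.91, SE 0.33, edgeR adjusted p 0.566).

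The CD3 genes were close to 0: Cd3e reached at most 0.377 CPM, Cd3d 0.54 CPM and Cd3g 1.27 CPM in any pool, and Cd40lg had no reads. Cd4 averaged 12.3 ± 5.31 CPM in H2afy_KO and 7.31 ± 3.82 CPM in H2afy_WT, with overlap (log2 fold change 0.75, SE 0.46, edgeR adjusted p 0.739). Of the 7 mature T markers tested, 6 had positive log2 fold changes and 1 a negative one. Summed over 10 mature T markers, the level was 98.4 to 156 CPM in H2afy_KO and 25.6 to 111 CPM in H2afy_WT. Most of that sum was Cd28, a costimulatory receptor, with 87.5, 109.8, 125 and 98 CPM in H2afy_KO pools 1 to 4, against 28.2, 17.4, 80.1 and 57 CPM in H2afy_WT pools 1 to 4. Every H2afy_KO pool was higher for Cd28, with a log2 fold change of 1.20 (SE 0.45, edgeR adjusted p 0.603). Natural killer markers summed to 239 to 412 CPM in H2afy_KO and 317 to 382 CPM in H2afy_WT, mostly Nkg7. Type 2 innate lymphoid markers summed to 13.2 to 20.2 CPM in H2afy_KO and 7.36 to 14.7 CPM in H2afy_WT, mostly Il17rb. Of these 8 markers 3 were tested, and Il13, Areg and Calca had no reads. Il1rl1 averaged 1.91 ± 0.902 CPM in H2afy_KO and 1.55 ± 1.22 CPM in H2afy_WT, with overlap (edgeR adjusted p 0.959).

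Il17rb, a cytokine receptor of type 2 innate cells, averaged 13.8 ± 2.21 CPM in H2afy_KO and 7.59 ± 2.29 CPM in H2afy_WT, without overlap (log2 fold change 0.86, SE 0.25, edgeR adjusted p 0.464). Marker sums of other cells overlapped between the genotypes. Plasmacytoid dendritic cell markers summed to 1100.5 to 1559 CPM in H2afy_KO and 850.01 to 1231 CPM in H2afy_WT. All 10 of them had positive log2 fold changes. At an unadjusted edgeR p under 0.05, 5 were higher, against 3.88% of all genes tested. The genotypes did not overlap for 2, both higher, against 2.18%. edgeR called 0, and DESeq2 called 3 as higher, Bst2, Cox6a2 and Irf8, against 0.335% of its genes. With a block for the replicate number DESeq2 called 5 as higher, against 1.7%. Irf8 averaged 324 ± 38.9 CPM in H2afy_KO and 160 ± 26 CPM in H2afy_WT, without overlap (log2 fold change 1.02, SE 0.15, edgeR adjusted p 0.0722). B-lineage markers summed to 849.9 to 2014 CPM in H2afy_KO and 1962 to 4257 CPM in H2afy_WT. Plasma cell markers summed to 179 to 20779 CPM in H2afy_KO and 599 to 9163 CPM in H2afy_WT, granulocyte and monocyte markers to 906 to 2835 CPM in H2afy_KO and 1212 to 5644 CPM in H2afy_WT. The part of these markers in the levels of the 10 genes was not tested, beyond the values without H2afy_KO pools 3 and 4 given with Tox.

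**Figure D4:**
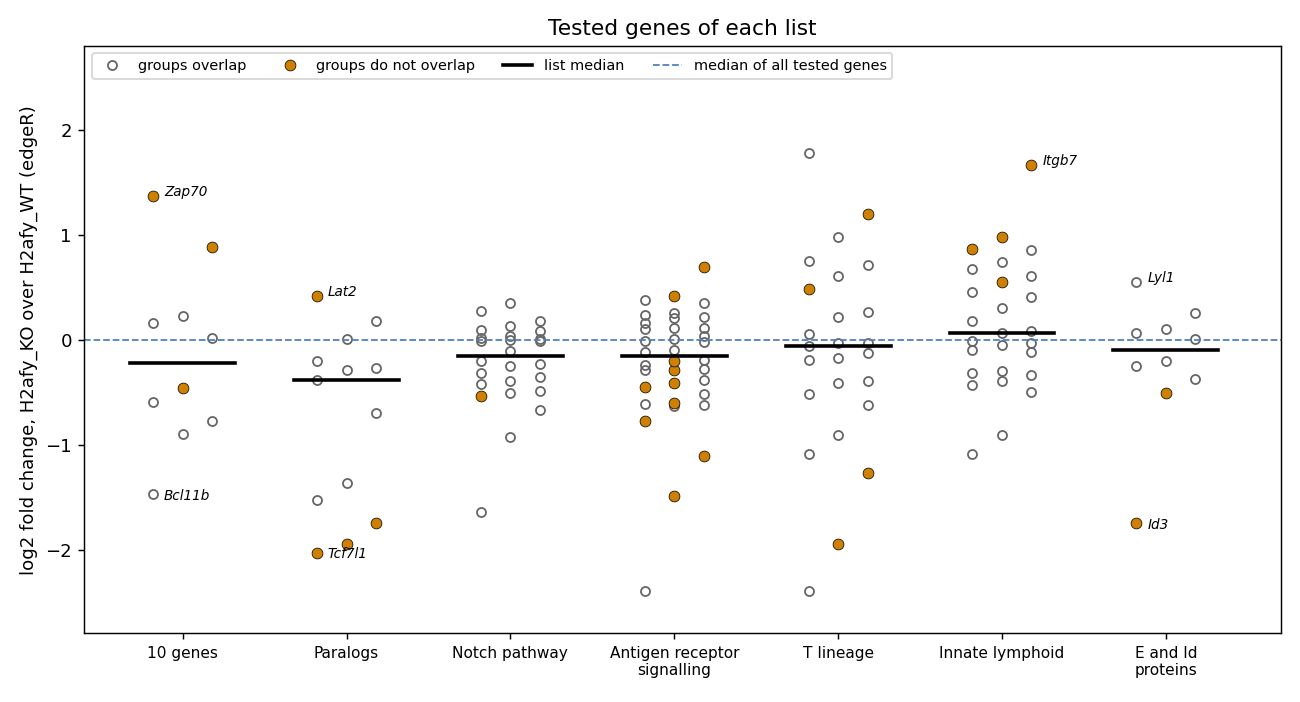
Log2 fold change, H2afy_KO over H2afy_WT, of each tested gene of the 10 and of the lists of paralogs, Notch pathway, antigen receptor signalling, T lineage, innate lymphoid, and E and Id genes; filled points are genes whose genotypes do not overlap, black lines are list medians and the dashed line is the median of all genes tested. Paralogs and antigen receptor signalling genes had more negative than positive values (10 against 3, and 22 against 14), and the innate lymphoid list was nearly even (14 positive, 13 negative).

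The paralogs of the 10 genes, read as a list, had 13 of 17 genes tested, 3 with positive and 10 with negative log2 fold changes and a median of -0.39. At an unadjusted edgeR p under 0.05, 1 was higher, Lat2, and 4 were lower, Id3, Lef1, Tcf7l1 and Tcf7l2, against 3.88% and 3.69% of all genes tested. edgeR and limma-voom called 0, and DESeq2 called 2 as lower, Id3 and Tcf7l1, against 0.54% of its genes. With a block for the replicate number DESeq2 called Lat2 as higher and Lef1, Tcf7l1 and Tcf7l2 as lower. The shares over its genes were 1.7% and 1.61%. Id3 also stands in the E and Id list and Lef1 in the T lineage list.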

How the data were processed

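The data are RNA-seq of 4 H2afy_KO and 4 H2afy_WT pools of sorted progenitors. The cDNA kit, made for low input, carries no strand information, and reads were single, 50 bases long, per the labels' protocols. HISAT2 2.0.6 was used for alignment to mm9, per the submitters' processing notes. Which program counted reads per gene, with which annotation and strand setting, is not stated in any source used here. What the authors deposited is a table of whole-number counts per Ensembl gene ID for each pool, without normalization. A gene and its antisense partner, or near-identical copies, can share reads in such counts.

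GENCODE M1 on NCBIM37, the assembly of mm9, named 37205 of 37991 IDs, and 786 had no match. All 213 listed symbols matched, 2 through a synonym. No pool repeated another: over 28 pairs, chi-square per degree of freedom was at least 101. edgeR 4.0.16 in R 4.3.3 was run with TMM factors, filterByExpr (minimum count 10), a robust quasi-likelihood fit with genotype as its 1 factor, and Benjamini-Hochberg adjustment at a threshold of 0.05, over 13722 genes. Their biological coefficient of variation was 0.390. CPM uses TMM-scaled totals, RPKM divides it by merged exon length, and log2 CPM has a prior count of 2. No interval was computed for single shares, and counts are of PCR reads without molecular identifiers.

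Alternatives were DESeq2 1.42.0 (the tool that the series' design text names), RLE factors, no low-count filter, and a minimum of 5 CPM in 4 samples. Others were limma-voom with sample weights (limma 3.58.1, called limma-voom throughout), a fit leaving immunoglobulin genes out, and their share as a covariate. Wherever the share is a covariate, its log2 was entered. A replicate block, left-out pools, and replicates 1 and 2 alone were also tried. The labels number the pools 1 to 4 in both genotypes without saying what the number marks. Same-numbered pools deviated together, with correlations of 0.19, 0.19, 0.36 and 0.41, and the number was tried as a block. Some pools with different numbers were closer still: H2afy_KO 1 with H2afy_WT 2 had 0.524 and H2afy_KO 3 with H2afy_WT 4 had 0.454. The correlations therefore do not show that the number marks pairs. edgeR with and without the replicate block, DESeq2 and limma-voom were also run on simulated data with known changes. The outcome of those runs is not given here.

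The 10 genes and all lists were chosen with earlier results of these data known. Genes named were the 10, H2afy, the 3 lowest p-values of each list when none passed the threshold, all tested paralogs, the 2 nearest patterns, and the 2 highest genes of each marker list, of which those bearing on a result are given. Further marker genes at or near 0 were named after their values were seen. Promoter sequences came from the RefSeq table on GRCm38.p6, and no coordinates were converted between builds.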

Additional observations from a re-analysis of the deposited data

How the results depend on the processing

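The number of genes called over all genes was 0 in edgeR as run here, 128 with DESeq2, 485 with DESeq2 and a replicate block, 15 with a replicate block, 16 with no filter, 2 with a filter of 5 CPM in 4 samples, 4 with limma-voom, 5 with no immunoglobulin genes and 3 with the immunoglobulin share as a covariate. It was 0 to 1 with each pool left out, with 1 call without H2afy_KO pool 4. Of the 10 genes, 2 were called with DESeq2 and 2 with DESeq2 and a replicate block, where Tox had an adjusted p of 0.0033 and Zap70 of 0.0034, and 0 under each other setting. The replicate block changed no call among the 10 in edgeR or DESeq2. Tox, Zap70 and Lat kept their sign in every setting that gave a value, at 0.72 to 1.04, 1.17 to 1.69 and -0.53 to -0.37 with each pool left out.

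The log2 fold change of Gata3 turned to -0.071 with limma-voom and its sample weights, and ran from -0.14 to 0.70 with each pool left out. That of Zbtb16 ran from -1.18 to 0.18 and was 0.26 with replicates 1 and 2 alone. That of Notch1 was -0.0055 with a replicate block, -0.0063 with DESeq2 and that block, -0.018 with limma-voom and -0.10 to 0.15 with each pool left out. The cause was not tested for any of these. The filter of 5 CPM left out Zap70, Zbtb16, Bcl11b and Thy1, so it gave no value for them. The reads behind Zbtb16 were 11 to 26 a pool in H2afy_KO and 2 to 77 in H2afy_WT, a spread between pools as well as a low depth.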

Other observations

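Some other genes of antigen receptor signalling whose genotypes did not overlap are given here as values. They were picked after their values were seen, and all 4 were lower in H2afy_KO. In the whole list the genotypes did not overlap for 2 that were higher and 8 that were lower, against 2.18% and 2.35% of all genes tested. Ubash3a, a negative regulator of T cell receptor signalling, averaged 63.5 ± 9.42 CPM in H2afy_KO and 87 ± 7.21 CPM in H2afy_WT, with SDs over 4 pools each. Skap1, an adaptor for integrin activation in T cells, averaged 1.95 ± 1.09 CPM in H2afy_KO and 5.44 ± 3.08 CPM in H2afy_WT. Plcg1, the phospholipase that Lat recruits, averaged 36.7 ± 5.51 CPM in H2afy_KO and 55.8 ± 19.6 CPM in H2afy_WT. Btk, the kinase of B cell receptor signalling, averaged 231 ± 18.6 CPM in H2afy_KO and 282 ± 25.2 CPM in H2afy_WT. None of these 4 passed the edgeR test over all genes, with adjusted p-values of 0.467 to 0.629. DESeq2 called none of the 4 without a block for the replicate number. With the block it called Ubash3a, Skap1 and Plcg1, and 1.61% of its genes as lower.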
